A study of Mus musculus with 4 samples.

Results

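The genes described here are the 9 apolipoprotein genes Apoa1, Apoc3, Apoa4, Apoa5, Apob, Apoe, Apoc1, Apoa2 and Apoh, together with Mttp, out of 21924 protein-coding genes of the mouse annotation. Their peaks were chosen in ChIP-Seq lists of the glucocorticoid receptor (GR) and of E2A from mouse liver. A peak was taken when it lay within 50 kb of the start of 1 of the 10 genes, or when the deposited annotation named 1 of them as its nearest gene. This gave 94 of 17545 called peaks. GR replicates 1 and 2 held 25 and 36 of them, and E2A replicates 1 and 2 held 21 and 12. Position alone chose 88 peaks and the nearest gene alone 79, with 73 chosen by both. The 6 chosen by the nearest gene alone lay further out, at Apob and Apoh. Peaks of different samples that shared at least 1 bp were merged, which left 44 regions at these genes of 10755 in all.

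Livers came from male C57BL/6J mice with the genotype E47+/+, fed chow ad libitum, labelled untreated and collected at ZT 10, which is 10 h after lights on. The methods give an age of 10 to 16 weeks. Each ChIP had 2 replicates. The descriptions of both E2A samples name a GR ChIP, and that of replicate 2 also names E47-/- mice, whereas their titles, antibody and genotype fields give E2A in wild type and were followed here. A supplementary description calls the livers Dex-treated. The replicate numbers of the GR samples are those of their titles, and the names of the deposited lists carry them the other way round. The lists held 4291 and 7334 peaks for GR and 4028 and 1892 for E2A, and before calling, the libraries had been cut down to an equal number of read pairs within a ChIP (18 mio in the GR and 22 mio in the E2A libraries). They give positions and no read counts or peak heights, so the depth behind a peak is unknown and a peak that is not listed is a peak that was not called. Whole liver was used, so a peak cannot be assigned to a cell type. All 6 hepatocyte marker genes tested had a GR peak over a transcript start in both replicates, and 3 and 2 of them had an E2A peak there in replicates 1 and 2. None of the 4 B cell, 3 cholangiocyte or 4 stellate and endothelial markers had a peak over a start in any sample, and 1 of 4 Kupffer cell and leukocyte markers had one, in GR replicate 2 only. Over all protein-coding genes the shares were 5.64 and 18% for GR and 6.56 and 2.76% for E2A, so counts of 0 among so few markers say little. Within 50 kb, a GR peak in either replicate stood at 3 B cell, 0 cholangiocyte, 2 stellate and endothelial and 2 Kupffer cell and leukocyte markers (43.9% of genes).

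Apolipoproteins are the proteins that coat lipoprotein particles, and the liver is a main source of most of them. Apolipoprotein B forms the scaffold of very low density lipoprotein, microsomal triglyceride transfer protein (Mttp) loads it with lipid in the endoplasmic reticulum, and the small exchangeable apolipoproteins move between particles and set how lipases and receptors act on them. GR is the nuclear receptor for glucocorticoids and binds glucocorticoid response elements (GREs). E2A (Tcf3) encodes the basic helix-loop-helix factors E12 and E47, which bind E-Boxes.

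The sequences that follow come from 3 narrow regions that all 4 samples called and that meet no annotated exon, and the promoters of 3 genes with a broad or promoter-wide peak. They were read from the RefSeq assembly GRCm38.p6, on the plus strand, and the gene promoters are on the same strand as their genes. Capitals mark matches on either strand to the E-Box letters CANNTG or to the C/EBP letters TTGCNNAA. C/EBP factors are liver-enriched activators. A further narrow region called in all 4 samples, upstream of Apoe, is not shown because it lies in an exon of a RefSeq transcript model. The first 3 stretches are the bases common to the peaks of all 4 samples. They are chr9:46215710-46215945 in intron 21 of Sik3 upstream of Apoa1, chr9:46259177-46259432 between genes upstream of Apoa5, and the central 300 bases of the common part upstream of Apob, chr12:7950193-7950492. The promoters end before the first annotated base of the gene and are chr9:46228380-46228579 for Apoa1, chr9:46268358-46268607 for Apoa5 and chr12:7977427-7977628 for Apob.
Upstream of Apoa1: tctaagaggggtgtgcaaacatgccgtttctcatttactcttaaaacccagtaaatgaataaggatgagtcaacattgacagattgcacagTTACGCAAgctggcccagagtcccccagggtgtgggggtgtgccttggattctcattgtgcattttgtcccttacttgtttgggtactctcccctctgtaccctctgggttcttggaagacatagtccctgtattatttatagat
Upstream of Apoa5: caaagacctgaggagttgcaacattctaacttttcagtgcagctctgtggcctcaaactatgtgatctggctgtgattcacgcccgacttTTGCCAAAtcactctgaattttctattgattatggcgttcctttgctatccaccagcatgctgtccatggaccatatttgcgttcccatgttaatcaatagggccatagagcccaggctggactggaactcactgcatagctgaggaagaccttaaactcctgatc
Upstream of Apob: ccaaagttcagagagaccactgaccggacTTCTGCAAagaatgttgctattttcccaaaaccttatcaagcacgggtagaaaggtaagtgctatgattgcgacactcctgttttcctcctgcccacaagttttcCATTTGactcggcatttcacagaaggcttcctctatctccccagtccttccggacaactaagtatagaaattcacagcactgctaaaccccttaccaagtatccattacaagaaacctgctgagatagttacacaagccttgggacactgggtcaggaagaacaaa
Apoa1 promoter: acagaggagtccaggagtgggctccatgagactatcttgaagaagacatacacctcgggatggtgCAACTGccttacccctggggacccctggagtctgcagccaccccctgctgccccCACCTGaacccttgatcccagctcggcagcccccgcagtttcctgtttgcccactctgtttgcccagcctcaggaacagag
Apoa5 promoter: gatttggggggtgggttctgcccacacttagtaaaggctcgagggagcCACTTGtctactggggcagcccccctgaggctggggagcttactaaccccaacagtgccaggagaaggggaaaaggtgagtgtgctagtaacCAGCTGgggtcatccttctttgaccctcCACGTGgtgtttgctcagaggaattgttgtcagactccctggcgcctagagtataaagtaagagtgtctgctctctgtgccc
Apob promoter: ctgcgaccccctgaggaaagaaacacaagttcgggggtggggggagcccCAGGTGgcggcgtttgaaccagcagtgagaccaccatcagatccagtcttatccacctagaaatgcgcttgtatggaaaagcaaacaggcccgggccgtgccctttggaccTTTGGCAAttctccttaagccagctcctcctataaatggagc

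Each of the 3 distal stretches held 1 C/EBP match. These are TTACGCAA at chr9:46215801-46215808, TTGCCAAA at chr9:46259267-46259274 and TTCTGCAA at chr12:7950222-7950229. Of all 10602 regions of at most 2000 bp, 14.1%, 14.9% and 16.5% held such a match in windows of the same 3 lengths. Among the 3 stretches an E-Box match stood only in that upstream of Apob (CATTTG), where 70.4% of windows of that length have one. The whole merged regions upstream of Apoa1, Apoa5 and Apob (646, 416 and 525 bp) held 2, 2 and 1 E-Box matches and 1, 1 and 2 C/EBP matches. The region upstream of Apoe that is not shown held 3 E-Box matches and 0 C/EBP matches in its 738 bp. The Apoa5 promoter held 3 E-Box matches, the form CACGTG among them, the Apoa1 promoter 2 and the Apob promoter 1, against 59.1 to 66.2% of 32817 RefSeq promoters with at least 1 in the same span. The Apob promoter also held a C/EBP match (TTTGGCAA), as did 8.21% of promoters. None of the 6 stretches contained the GRE letters ACANNNTGT. These stretches were chosen with the lists known, and a match of letters does not show that a factor binds there.

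All 10 genes had a GR peak within 50 kb of the gene start in at least 1 replicate, where 43.9% of protein-coding genes had one. In both GR replicates this held for 8 of the 10 (all but Apoh and Mttp), against 21.4% of genes. An E2A peak was called within 50 kb of 8 of the 10 in either replicate (28.7% of genes) and of 7 in both (11.4%), all but Apoa2, Apoh and Mttp. The same 7 had a peak in all 4 samples, as did 7.53% of genes. These counts use the annotated gene start, which for Apoh belongs to a long transcript beginning beside Prkca. Counted from any transcript start, 9 of the 10 had an E2A peak in either replicate, with Apoh added. The share of all genes was not counted in that way. The 4 genes of the chromosome 9 cluster share most of their peaks, and so do Apoe and Apoc1, so the 10 genes stand for 6 separate places in the genome.

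**Figure D1:**
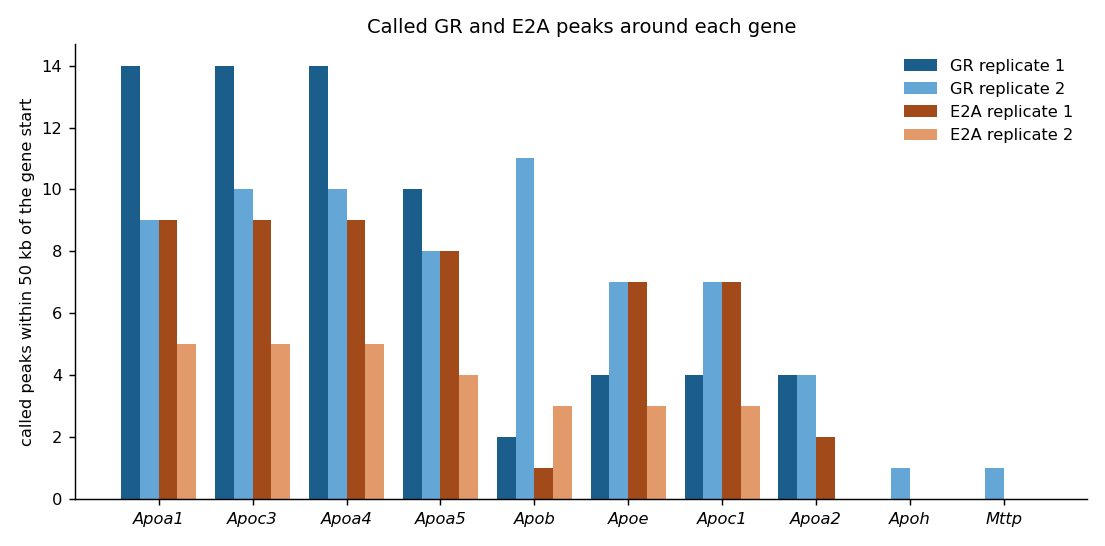
Number of called peaks (y axis) within 50 kb of the start of each of the 10 genes (x axis), with 1 bar for each of the 4 samples. The bars reach 14 at Apoa1, Apoc3 and Apoa4 in GR replicate 1, Apob is highest in GR replicate 2 with 11, and Apoh and Mttp have a single peak in GR replicate 2. For Apoh the most upstream start is used, so the GR and E2A peaks at its shorter transcript are not counted.

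Peaks over a transcript start were fewer. GR was called over a start of 9 of the 10 genes in either replicate, against 18.8% of protein-coding genes, and Apoa4 was the exception. In both GR replicates this held for Apoa1, Apoc3, Apoa5, Apoe and Apoa2, which is 5 of 10 against 4.87%. E2A was called over a start of 5 genes in either replicate (7.33%) and of 2, Apoa5 and Apoe, in both (1.99%). Apoa5 and Apoe were also the 2 genes with a start peak in all 4 samples, which 0.675% of genes had. By sample, the count was 5 and 9 of 10 for GR replicates 1 and 2 and 3 and 4 for E2A, and the percent of all genes was 5.64, 18, 6.56 and 2.76. GR replicate 2 thus gave the highest count at these genes and at all genes alike. Counting only the annotated gene start, the most upstream one, GR was called over 7 of the 10 in either replicate (14.1% of genes) and 4 in both (3.16%), and E2A over 3 (5.51%) and 2 (1.41%). The start of 2 genes was then covered in all 4 samples, against 0.392% of genes.

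**Figure D2:**
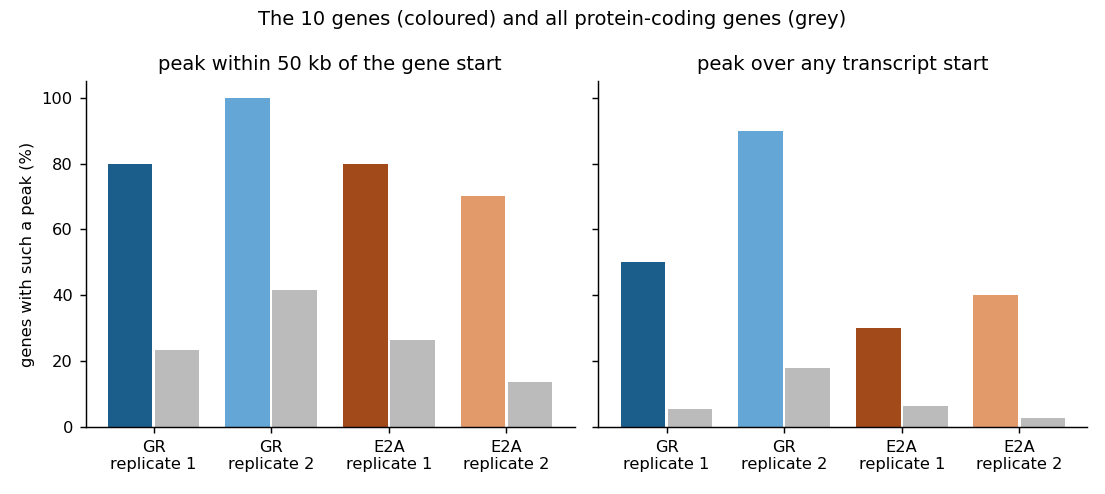
Percent of genes (y axis) with a called peak in each of the 4 samples (x axis), within 50 kb of the gene start (left) and over any transcript start (right). Coloured bars are the 10 genes and grey bars all 21924 protein-coding genes. The 10 genes run from 70 to 100% against 13.7 to 41.8% on the left.

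GR had more called peaks at these genes than E2A, whereas the shares of the lists that they made up overlapped. Within 50 kb of the 10 gene starts there were 24 and 34 GR peaks and 19 and 11 E2A peaks, a mean of 29 ± 7.07 for GR and 15 ± 5.66 for E2A (SD, n = 2 each). The groups did not overlap, and the difference of 14 peaks had p = 0.333 in a two-sided exact permutation test, the smallest p that 2 against 2 samples allow. Within 10 kb the means were 17 and 11.5, a difference of 5.5 peaks. Relative to the length of each list the order was lost. The peaks at these genes made up 0.559% and 0.464% of the GR lists and 0.472% and 0.581% of the E2A lists. The 95% Wilson intervals of these shares, which cover counting error only, all overlap, from 0.302 to 0.736% for E2A replicate 1 and 0.325 to 1.04% for E2A replicate 2, and from 0.376 to 0.831% and 0.332 to 0.647% for GR. The mean shares were 0.511% ± 0.0677 for GR and 0.527% ± 0.0776 for E2A (SD, n = 2 each), with p = 0.667 in the same exact test. The sign of this small difference turned with a window of 100 kb (0.00126 percentage points) and without GR replicate 2 (0.0328) or E2A replicate 2 (0.0398).

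Of the 44 regions, 16 were called in both ChIPs (36.4%, 95% Wilson interval 23.8 to 51.1%), against 24.7% of all regions. This interval covers counting error only and takes the regions as independent, although many lie close together, so it is no test against all regions. All 4 samples called 7 regions (15.9%), against 4.44%. Of these 7, 4 were in the chromosome 9 cluster, 2 at Apoe and Apoc1 and 1 at Apob. Regions called in both ChIPs were 7 of 13 in the cluster (53.8%), 4 of 9 at Apoe and Apoc1 and 3 of 13 at Apob (23.1%). At Apoa2, Apoh and Mttp they were 2 of 5, 0 of 3 and 0 of 1. The share was thus highest in the cluster, but the counts are small. The 95% Wilson intervals overlap, with 29.1 to 76.8% for the cluster and 18.9 to 73.3% for Apoe and Apoc1. For Apob the interval was 8.18 to 50.3%, and a difference between loci was not tested. Of the 20 E2A regions at these genes, 16 had a GR peak (80%), where 57.0% of all E2A regions had one, and 12 had a GR peak in both replicates (60%, against 27.4%). The cluster supplied 7 of these 16 and 7 of these 12. Of the 40 GR regions, 16 had an E2A peak (40%, against 30.4%). Requiring both replicates of a ChIP left 7 shared regions of 18 (38.9%, against 14.2% of all), and leaving out E2A replicate 1 left 9 of 41 (21.95%, against 11.9%). Wide peaks move with this overlap. With only peaks of at most 2000 bp, 14 of 47 regions were shared (29.8%, against 24.2% of all), and 13 regions had centres within 250 bp of each other (29.5%, against 22.3%).

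The replicates of a ChIP shared part of their regions at these genes, in each case a larger part than over all regions. Wide peaks were commoner at these genes than in the lists. The counts of this paragraph were not repeated with a width limit, so the part of width in them was not tested. GR replicate 1 had peaks in 21 of the regions and GR replicate 2 in 36, with 17 in common, which is 81.0% and 47.2% of each (65.3% and 37.6% over all regions). E2A replicate 1 had 18 and E2A replicate 2 had 10, with 8 in common (44.4% and 80%, against 27.9% and 61.7% over all regions). Across the ChIPs, 9 of the 10 regions of E2A replicate 2 were also in GR replicate 2 (90%, against 56.6% over all regions) and 8 in GR replicate 1 (80%, against 41.6%). Regions seen in GR replicate 2 alone numbered 16 of 44 (36.4%), close to the 33.0% of all regions, and 8 of these 16 were at Apob. No region was seen in E2A replicate 2 alone, against 3.19% of all regions.

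The cluster of Apoa1, Apoc3, Apoa4 and Apoa5 on chromosome 9 carried the most peaks. Apoa1 encodes the main protein of high density lipoprotein, Apoc3 an inhibitor of triglyceride clearance, Apoa4 an exchangeable apolipoprotein of triglyceride-rich particles and Apoa5 an activator of triglyceride clearance. The peaks within 50 kb of Apoa1 numbered 14 and 9 for GR and 9 and 5 for E2A, and those of Apoa4 14 and 10 for GR and 9 and 5 for E2A. Apoa5 had 10 and 8 GR peaks and 8 and 4 E2A peaks. Here GR replicate 1, which has the shorter GR list, gave more peaks than GR replicate 2. Summed over the GR replicates, Apoc3 and Apoa4 had 24 peaks, and only 3 of 21924 genes had at least as many, these 2 among them. For E2A, Apoa1, Apoc3 and Apoa4 had 14 each, which 16 genes reached.

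Of the 13 regions of the cluster, 9 were called in both GR replicates and 7 in at least 1 E2A replicate. All 7 E2A regions were called in both GR replicates. By sample, 4 regions were called in all, 3 in both GR replicates and E2A replicate 1, 2 in both GR replicates only, 3 in GR replicate 1 only and 1 in GR replicate 2 only. No region of the cluster was called in E2A alone.

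**Figure D3:**
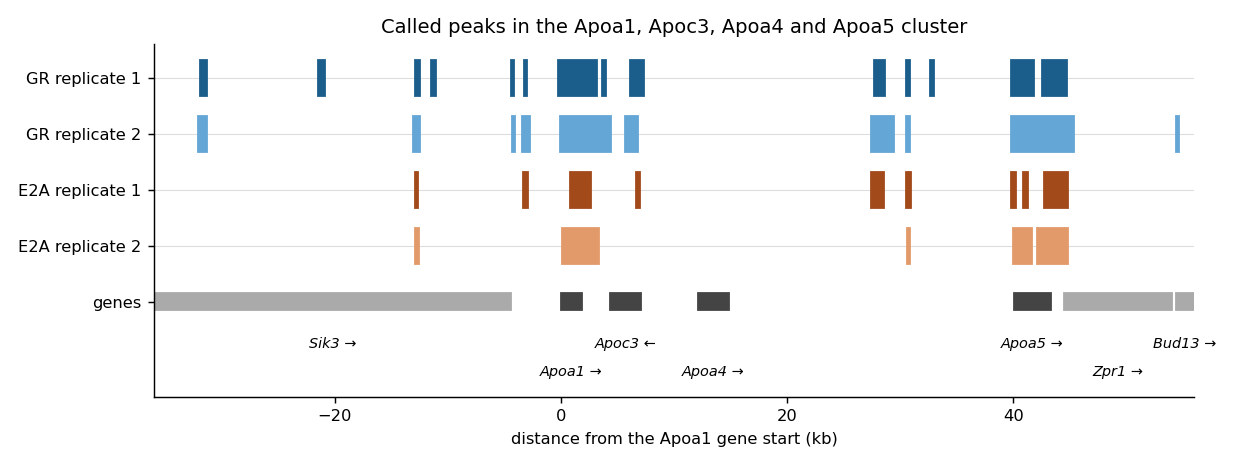
Called peaks of the 4 samples (rows) along the Apoa1, Apoc3, Apoa4 and Apoa5 cluster, against the distance from the Apoa1 gene start in kb (x axis). Blocks are peaks drawn to scale with a minimum drawn width, dark bars are genes of the group, grey bars other genes and arrows the direction of transcription. The 4 regions called in all samples are the Sik3 intron, the Apoa1 body, the intergenic region before Apoa5 and the Apoa5 to Zpr1 stretch, and no peak covers the start of Apoa4 in any row.

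At Apoa1 itself the peaks were broad. They measured 3425 bp (chr9:46228351-46231775) and 4501 bp (chr9:46228471-46232971) for GR, and 1901 bp (chr9:46229380-46231280) and 3247 bp (chr9:46228695-46231941) for E2A. The gene spans 1887 bp from 46228580, so the GR peaks covered its start and whole body and ran past its end. The promoter stretch shown above was covered whole in GR replicate 1 and from 46228471 on in GR replicate 2. The E2A peak of replicate 2 began inside the gene and covered a second annotated transcript start at 46228721, and that of replicate 1 began 659 bp past it. Each of these peaks was wider than at least 99.4% of its own list. The body of Apoa1 was thus called in all 4 samples and the first start only in GR.

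Upstream of Apoa1 lies Sik3, a salt-inducible kinase gene. Its intron 21 held the narrow region whose common bases are given above, centred 12752 bp before Apoa1 and called in all samples with widths of 478 and 621 bp for GR and 312 and 315 bp for E2A. A GR-only region stood further into Sik3 (intron 11, centred 31705 bp before Apoa1) in both GR replicates. Regions in intron 15 and elsewhere in intron 21 were called in GR replicate 1 only. Nearer to Apoa1, a region centred 3100 bp before the gene was called in both GR replicates and E2A replicate 1, and one centred 4241 bp before it, at the end of Sik3, in both GR replicates. The latter held the letters ACANNNTGT in its central 200 bp, 1 of only 2 such regions among the 37 that were at most 2000 bp wide.

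Apoc3, which is transcribed towards Apoa1, had peaks over its start in both GR replicates (chr9:46234697-46235889 and chr9:46234233-46235404) and in E2A replicate 1 (chr9:46235184-46235587). None was called in E2A replicate 2. The peaks of GR replicate 2 and E2A replicate 1 did not reach the outermost of the 4 annotated starts (46235636) and covered others downstream. Apoa4 had no peak over its only annotated start (46240696) in any sample, and no peak was assigned to it as nearest gene. Its high count within 50 kb therefore comes from peaks nearest to its neighbours. In Dex-treated and in fasted livers, the paper measured GR at Apoa4 by ChIP-qPCR and reports less of it in E47 mutants. A start without a called peak is thus not shown to be free of GR.

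Upstream of Apoa5, both GR replicates and E2A replicate 1 called a region centred 11591 bp before the gene (widths of 1010, 2048 and 1137 bp). All 4 samples called the narrow region centred 9315 bp before it, with widths of 302 and 309 bp for GR and 416 and 256 bp for E2A. The start of Apoa5 was covered in all 4 samples. GR replicate 1 had a peak of 2089 bp (chr9:46268361-46270449) and GR replicate 2 one of 5600 bp (chr9:46268365-46273964), and E2A had peaks of 419 bp (chr9:46268432-46268850) and 1742 bp (chr9:46268546-46270287). The GR peaks began within 4 bp of each other. In GR replicate 2 a single peak ran from Apoa5 to the promoter of Zpr1, a zinc finger protein gene, where the other samples called separate Zpr1 peaks of 2204, 2124 and 2736 bp. The promoter of Bud13, a splicing factor gene further along, was called in GR replicate 2 only.

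Apob showed the largest gap between replicates. Within 50 kb of its start, 2 and 11 GR peaks and 1 and 3 E2A peaks were called. The deposited annotation assigned 3 and 12 GR peaks and 2 and 3 E2A peaks to it. The start itself was covered in GR replicate 2 (chr12:7977492-7981397, 3906 bp) and E2A replicate 2 (chr12:7977370-7978184, 815 bp), and in neither replicate 1. The promoter was thus called in 1 replicate of each ChIP.

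Of the 13 regions at Apob, 8 were called in GR replicate 2 only. The annotation placed 6 of these in exons, among them exon 13, exon 15, exon 25 and exon 26 of a transcript with 29 exons. No other gene of the group had an exon peak in GR, and 1 E2A peak at Apoa5 was so annotated. Exons held 2.69% of the whole list of GR replicate 2 and 3.29% of that of GR replicate 1. Without Apob, the peaks within 50 kb of the remaining 9 genes numbered 22 and 23 for GR and 18 and 8 for E2A, so that the GR replicates differed by 10 peaks with this gene and by 1 without it. The near-equal totals balance opposite differences, with 14 and 10 GR peaks within 50 kb of Apoa4 and 4 and 7 within 50 kb of Apoe. Without Apob, 13 of 31 regions were shared between the ChIPs (41.9%).

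The most reproducible region of Apob was intergenic. It was centred 27277 bp before the start and called in all 4 samples, as chr12:7950183-7950539 and chr12:7950109-7950633 for GR and chr12:7950180-7950557 and chr12:7950146-7950502 for E2A. The widths of 357, 525, 378 and 357 bp were near the median of each list, which was 372, 408, 378 and 349 bp. A region past the end of the gene (chr12:8017498-8018816) was called in both GR replicates and E2A replicate 2, and one centred 57588 bp before the gene in both GR replicates only. A further peak 66837 bp before the gene was called in E2A replicate 1 only, and its central 200 bp held the other match to ACANNNTGT.

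**Figure D4:**
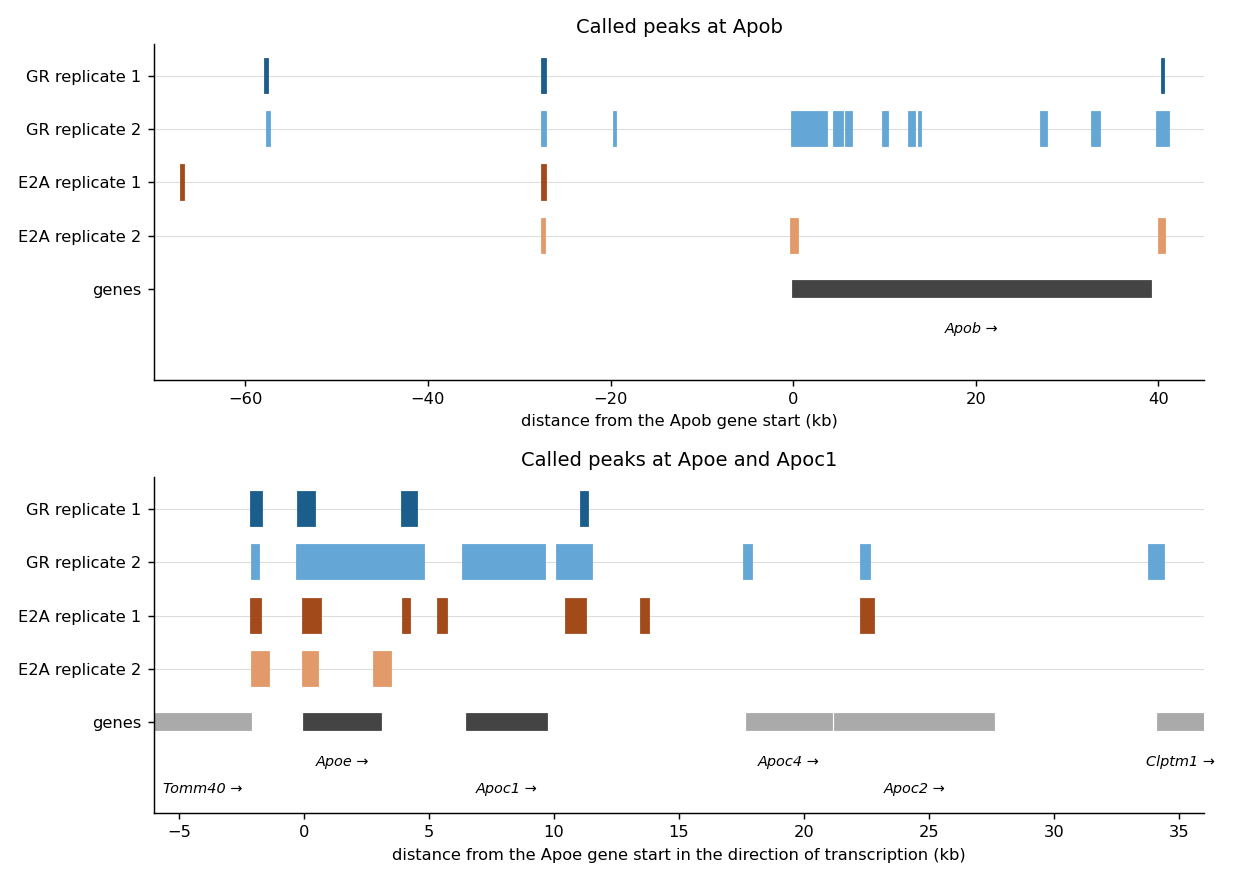
Called peaks of the 4 samples (rows) at Apob (top) and at Apoe and Apoc1 (bottom), against the distance from the gene start in kb (x axis, in the direction of transcription). Blocks are peaks drawn to scale with a minimum drawn width, dark bars are genes of the group and grey bars other genes. At Apob all samples share the region 27277 bp upstream. Past the start region, which E2A replicate 2 also called, scattered peaks in the gene body are called in GR replicate 2 alone. At Apoe all samples have peaks at the start and upstream of it.

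Apoe, a ligand of hepatic lipoprotein receptors, and Apoc1, an inhibitor of that uptake, lie next to each other on chromosome 7 with Apoc4 and Apoc2. Both Apoe and Apoc1 had 4 and 7 GR peaks and 7 and 3 E2A peaks within 50 kb. The ranges of GR and E2A thus overlapped here. For E2A the 10 summed peaks at Apoe were reached by 48 genes, and for GR the 11 summed peaks by 212 genes.

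The start of Apoe was covered in all 4 samples. The peaks were chr7:19698756-19699427 and chr7:19694383-19699458 for GR, and chr7:19698522-19699231 and chr7:19698631-19699243 for E2A. Widths were 672, 710 and 613 bp in 3 samples and 5076 bp in GR replicate 2, whose peak ran through the whole gene of 3080 bp. A second region, chr7:19700573-19701310, centred 1753 bp before the start, was also called in all 4 samples with widths of 433, 271, 413 and 697 bp. Apoc1 had a peak over its start in GR replicate 2 only (chr7:19689533-19692823, 3291 bp). Past the end of Apoc1, a region at chr7:19687685-19689064 was called in both GR replicates and E2A replicate 1.

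Further regions on this side were less reproducible. A region in Apoc2, which encodes the cofactor of lipoprotein lipase, was shared by GR replicate 2 and E2A replicate 1. The promoters of Clptm1 and of the predicted gene Gm44805 were called in GR replicate 2 only. E2A replicate 1 alone called a peak nearest to Apoc4 and one centred 989 bp before Apoc1.

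Apoa2, the second most abundant protein of high density lipoprotein, had 4 GR peaks in each replicate and 2 and 0 E2A peaks within 50 kb. Its start was covered in both GR replicates (chr1:171224915-171225298, 384 bp, and chr1:171224921-171228108, 3188 bp) and in neither E2A replicate. The E2A peaks of replicate 1 lay upstream, at chr1:171220781-171221460, which the deposited annotation calls a promoter of Apoa2, and over the promoter of Tomm40l, a mitochondrial import gene, at chr1:171222239-171223370. Each of these 2 overlapped a peak of a single GR replicate. An intergenic region nearest to Pcp4l1 was called in both GR replicates only.

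At Apoh and Mttp the calls were few. Apoh encodes beta-2-glycoprotein I, a phospholipid-binding plasma protein. The annotated gene start of Apoh (chr11, position 108343354) belongs to a long transcript that begins beside the promoter of Prkca, a protein kinase C gene, and the only peak within 50 kb of it is that of GR replicate 2 nearest to Prkca. At the start of the shorter transcript (108395293), GR replicate 2 called a peak over the start (chr11:108395088-108395434). Both E2A replicates called a peak in intron 2 (chr11:108396152-108396737 and chr11:108396248-108396528), centred 1151 and 1095 bp past that start, with no GR peak. It was the only region of the 44 called in both E2A replicates and in neither GR replicate. Mttp had 1 peak, in GR replicate 2, over a transcript start (chr3:138131098-138131481), and none for E2A.

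Wide peaks were common at these genes. Peaks of at least 1500 bp made up 12% and 19.4% of the GR peaks at the 10 genes, against 0.955% and 3.03% of the lists. For E2A they made up 9.52% and 25%, against 0.894% and 2.11%. They numbered 3, 7, 2 and 3 in the 4 samples in the order GR replicates 1 and 2, E2A replicates 1 and 2. All wide peaks of GR replicate 1 and of both E2A replicates were at Apoa1 or from Apoa5 to Zpr1, and those of GR replicate 2 were also at Apob, Apoe, Apoc1, Apoa2 and upstream of Apoa5. The median width was 402 and 603 bp for GR and 419 and 655.5 bp for E2A.

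**Figure D5:**
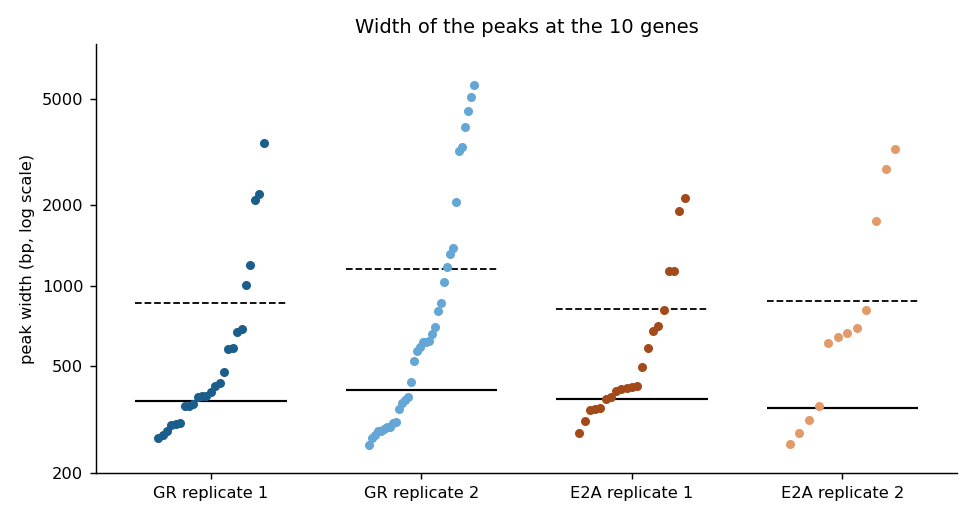
Width in bp (y axis, log scale) of every peak at the 10 genes, 1 point per peak sorted by width within each sample (x axis). Solid lines are the median and dashed lines the 95th percentile of all peaks of the sample. The widest peaks, of 3425, 5600, 2124 and 3247 bp, lie above the dashed line in all 4 samples.

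The letters under the peaks were compared with those of all regions in the central 200 bp, since the lists give no summits. Of 37 regions at the 10 genes, 21 held an E-Box match (56.8%, against 56.4% of 10602 regions) and 2 the GRE letters ACANNNTGT (5.41%, against 8.68%). C/EBP letters were in 4 (10.8%, against 12.0%) and the forkhead letters TGTTTAC in 2 (5.41%, against 4.57%), both at Apoh. The nuclear receptor half-site AGGTCA was in 4 (10.8%, against 17.2%), and the E-Box form CAGGTG in 4 (10.8%, against 13.2%). CAGCTG was in 1 (2.70%, against 11.8%) and CACGTG in 2 (5.41%, against 5.45%). The HNF4 letters CAAAGTCCA were in none of these centres, and 1.13% of all regions had them. Outside its centre, the 525 bp region upstream of Apob that all 4 samples called held 1 such match. The regions had 49.1% GC, against 56.8% in all regions, and the 7 regions over 2000 bp, among them those at the starts of Apoa1, Apoa5, Apob, Apoe, Apoc1 and Apoa2, were not part of these counts. Over their whole length, those 7 held 5 matches to ACANNNTGT from Apoa5 to Zpr1, 2 at Apoa1 and 2 upstream of Apoa5. Those at Apoe and Apoa2 held 1 each, and those at Apob and Apoc1 held 0. They are 2048 to 5604 bp long, and no share of all regions was counted for whole regions. Some narrower regions also held a match outside their centre.

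Other genes of lipoprotein metabolism were counted in the same way. Among 6 other apolipoprotein genes, 5 had a GR peak within 50 kb in both replicates and 3 an E2A peak in both (21.4% and 11.4% of all genes). Of these, Apoc2 and Apoc4 share the peaks of Apoe. Apof and Apon had a GR peak over a start in both replicates, and none of the 6 had an E2A peak there in both. Among 12 genes of particle assembly and secretion, 7 had a GR peak within 50 kb in both replicates and 2 an E2A peak. GR covered a start of P4hb, the subunit that pairs with Mttp, and of Surf4, Dgat2, Ces1d and Mia2 in both replicates, and E2A that of Ces1d, a hepatic carboxylesterase. P4hb thus had the start peak in both GR replicates that its partner Mttp had in 1.

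Among 9 genes of lipolysis and remodelling, 6 had a GR peak within 50 kb in both replicates and 2 an E2A peak. Lipc, the hepatic lipase, Lcat, which esterifies cholesterol on high density lipoprotein, and Angptl4, an inhibitor of lipoprotein lipase, had a GR peak over a start in both replicates. Among 11 receptors and transporters the counts were 7 and 4, with both GR replicates over a start of the remnant receptors Lrp1 and Sdc1 and of the cholesterol exporter Abca1, and both E2A replicates over that of Sdc1. Among 13 regulators the counts were 10 and 7. Here 8 genes (Hnf4a, Foxa2, Foxo1, Nr0b2, Ppara, Creb3l3, Srebf1 and Srebf2) had a GR peak over a start in both replicates, and Foxa2, Ppara and Srebf1 also an E2A peak in both. Over all genes, 4.87% had such a GR peak over a start and 1.99% such an E2A peak. Within 50 kb in both replicates, the shares of all genes were 21.4% for GR and 11.4% for E2A.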

How the data were processed

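The data are the peak lists of GR and E2A ChIP-Seq from mouse liver (2 samples each). Per the labels and the methods, the authors mapped the reads to mm10 by BWA-MEM (BWA 0.7.13 in the submitters' processing notes), discarded duplicates by Picard (1.119) and pairs without a unique position, downsampled, and ran MACS2 (2.1.0) on each sample. The methods name other versions of Picard and MACS2 than these notes. The control, threshold and annotation tool are not given in the sources used here. The deposited lists give peak positions, widths and distances to the nearest gene's start, in bp and without normalization.

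From these, peaks within 50 kb of the GENCODE M21 gene starts of mm10, or with a member as deposited nearest gene, were taken in every sample. Peaks over any annotated transcript start were counted separately. Samples were grouped by their titles, and the 4 totals were compared by exact permutation. Regions are merged peaks sharing at least 1 bp. Letters were matched on both strands in RefSeq GRCm38.p6. The promoter table had entries for 8 of the 10 genes. Of the deposited transcripts, 7445 of 7451 matched a gene of that assembly's table by gene identifier, which does not check positions. Of these 7445, 4834 (64.9%) shared the start or end of the gene to the base. Genes named are the 10 members, nearest genes of their peaks and listed lipoprotein genes with a start peak in both replicates of a ChIP. Some items searched or listed are not reported here and are left out of the counts. The members and lists were chosen with earlier results of these data known. Counts were made in Python 3.11.15 (pandas 2.3.3, numpy 2.4.6, scipy 1.17.1) and plots in matplotlib 3.10.9. The counting code was tested on simulated data. Alternatives changed the window, width limit, overlap, transcript starts and replicates.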

Additional observations from a re-analysis of the deposited data

How the results depend on the processing

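The alternatives changed 1 choice at a time, and those that chose peaks by position or symbol, used any transcript start for the peak totals or left out Apob were added after seeing the data. The excess of 14 GR peaks kept its sign under every alternative, with 5.5 peaks for a window of 10 kb as its lowest value and 9 to 19 without 1 sample, and no p could go below 0.333. With GR and E2A replicates of the same number paired in a replicate block, the difference was also 14 (exact sign-flip test, p = 0.5) and that of the shares -0.0151 percentage points (p = 1). The replicate numbers were not shown to pair the samples. The difference in the share of each list turned to 0.00126 percentage points with a window of 100 kb, and ranged from -0.0699 to 0.0398 without 1 sample, turning positive without GR replicate 2 (0.0328) and without E2A replicate 2 (0.0398). The number of shared regions moved from 16 of 44 (36.4%) to 7 of 18 (38.9%) when both replicates of a ChIP were required, and ranged from 9 to 15 without 1 sample, the lowest without E2A replicate 1. The number of genes with an E2A peak over the gene start moved from 3 to 5 with any transcript start and to 6 within 1 kb. In all, 44 of 51 alternatives kept the sign of the difference or stayed within 1.5 times the count. For the peak totals and shares only the sign could change, because no p could go below 0.333. Their part of this tally is therefore no check of a test result. The lists give no depth, so weak binding below the calling threshold cannot be seen.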

Other observations

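The genes with the most similar counts were in part neighbours. Over the 4 samples, Zpr1 had the same counts within 50 kb as Apoa5 (10, 8, 8 and 4), and Clptm1, Apoc2 and Gm44805 the same as Apoe. Away from the cluster, Herpud1, an endoplasmic reticulum stress gene, came nearest to Apoa5 with 8 and 8 GR peaks and 8 and 5 E2A peaks, a summed absolute difference of 3. For Apob the nearest were Etfbkmt (4, 11, 2 and 3) and Tnfsf14 (2, 13, 2 and 3), which also had most of their peaks in GR replicate 2. Apoa2 shared its counts with 6 genes, among them its neighbour Tomm40l and Slc45a3. For Apoh and Mttp no such choice was possible, since 2164 other genes had the same counts.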
